A study of Mus musculus with 24 samples.

Results

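The 9 genes described here, Drd1, Drd2, Adora2a, Adcy5, Pde1b, Pde10a, Ppp1r1b, Rasd2 and Rgs9, are genes of the medium spiny neurons, the principal output neurons of the striatum. They were chosen by name, and each was taken as the probe set whose single gene symbol is that name. Every one of them had 1 such probe set, so that they are 9 of the 19565 genes named among 22206 gene-level probe sets. Mouse Clariom S HT arrays were used for RNA from brain cortex and cardiac ventricle of 12 adult C57BL/6J mice aged 2 months, with 1 array for each tissue of each mouse and 24 arrays in all. Of these mice 6 were Tatdn1+/+ (tatd+/+ in the labels) and 6 were Tatdn1-/- (tatd-/-), with 3 males and 3 females in each genotype. The mutant line carried a deletion, in every tissue, of 1 loxP-flanked exon of Tatdn1, which encodes a protein of the TatD nuclease family. The deletion had been made with a ubiquitously expressed CAG-Cre transgene that was later bred out, and the neo cassette had been removed with FLPe. Values are log2 signals normalised by RMA (robust multi-array average), a method that corrects background, brings arrays to a common distribution and combines the probes of a probe set into 1 value. A difference of 1 on this scale is a doubling of signal, and levels are compared between samples for the same gene but not between genes, since probes differ in brightness.

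Medium spiny neurons receive dopamine from the midbrain and pass its signal on through cyclic AMP. Neurons of the direct pathway carry the Drd1 receptor, which raises cyclic AMP, whereas those of the indirect pathway carry the Drd2 receptor, which lowers it, together with the adenosine receptor Adora2a, which raises it. The other genes act downstream: Adcy5 encodes the main adenylyl cyclase of the striatum, Pde1b and Pde10a phosphodiesterases that break cyclic nucleotides down, Ppp1r1b a phosphoprotein that inhibits a protein phosphatase once protein kinase A has acted on it, Rasd2 a small GTP-binding protein, and Rgs9 a protein that shortens G protein signals. The striatum lies beneath the cortex, and several of these genes are also transcribed by cortical neurons, so that their signal in a piece of cortex can come from either.

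The promoters of these genes are shown as a description of sequence, and their part in the levels reported further on was not tested. RefSeq promoter windows (250 bases before to 50 bases after a transcription start, mouse build GRCm38.p6) were given for 7 of the 9 genes, 11 windows in all. Of the genes with a window, Pde1b, Rgs9 and Drd2 followed the other members most closely over the 12 cortex arrays (Pearson's r = 0.95, 0.89 and 0.86). Here r was taken between a gene's difference from its genotype mean and the mean scaled difference of the other members. Adcy5 had the largest genotype difference in cortex among genes with a window. The windows of these genes read as follows, each on the strand of its gene from 5′ to 3′. The GC box GGGCGG and the TATA box TATAAA are in capitals on whichever strand they were found. Pde1b on the plus strand is chr15:103502784-103503083, Rgs9 on the minus strand is chr11:109298132-109298431, Drd2 on the plus strand is chr9:49340153-49340452 and Adcy5 on the plus strand is chr16:35154614-35154913.
Pde1b: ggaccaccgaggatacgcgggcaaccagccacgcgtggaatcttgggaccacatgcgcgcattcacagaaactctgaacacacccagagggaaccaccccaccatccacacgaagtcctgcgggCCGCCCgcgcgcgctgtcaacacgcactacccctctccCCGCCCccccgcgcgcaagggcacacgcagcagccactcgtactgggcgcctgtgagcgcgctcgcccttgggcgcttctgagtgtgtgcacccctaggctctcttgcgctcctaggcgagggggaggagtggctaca
Rgs9: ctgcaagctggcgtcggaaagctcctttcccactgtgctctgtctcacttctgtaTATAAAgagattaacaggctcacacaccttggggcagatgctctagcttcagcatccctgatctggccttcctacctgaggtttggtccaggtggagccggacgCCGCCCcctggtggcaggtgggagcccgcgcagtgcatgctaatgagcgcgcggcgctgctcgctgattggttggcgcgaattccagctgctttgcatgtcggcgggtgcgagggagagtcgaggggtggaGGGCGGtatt
Drd2: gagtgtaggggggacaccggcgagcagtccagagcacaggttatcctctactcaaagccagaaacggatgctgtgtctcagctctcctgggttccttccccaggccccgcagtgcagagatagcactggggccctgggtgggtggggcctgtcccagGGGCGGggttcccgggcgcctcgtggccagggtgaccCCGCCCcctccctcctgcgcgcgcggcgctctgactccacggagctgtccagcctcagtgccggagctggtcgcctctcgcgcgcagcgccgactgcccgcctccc
Adcy5: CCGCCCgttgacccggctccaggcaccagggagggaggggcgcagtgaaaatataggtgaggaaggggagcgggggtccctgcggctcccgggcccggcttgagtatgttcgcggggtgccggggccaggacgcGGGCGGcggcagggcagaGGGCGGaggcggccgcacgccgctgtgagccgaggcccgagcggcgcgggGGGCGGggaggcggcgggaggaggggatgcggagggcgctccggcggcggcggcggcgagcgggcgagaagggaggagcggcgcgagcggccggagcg
A GC box lay in 8 of the 11 windows and in 6 of the 7 genes (Drd1, Drd2, Adcy5, Pde1b, Pde10a and Rgs9), whereas 35.7% of all 32851 RefSeq windows held one. The Adcy5 window held 4 of them. A TATA box was found in 2 windows, 1 of Pde1b and 1 of Rgs9 (13.6% of all windows). The cyclic AMP response half-site TGACG and the nuclear receptor half-site AGGTCA, searched on both strands like the others, were in 0 of 11 windows against 20.8% and 16.3% of all windows. The GC content of the 11 windows ran from 44.0% in another Pde1b window to 79.0% in Adcy5, and its median over all windows was 52.7%. The shares with a motif, which count windows and not genes, were not adjusted for GC content. None of the matches overlapped another, and a match describes the sequence without showing that a factor binds there.

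As for the arrays themselves, their medians lay between 2.551 and 2.86 over all entries. Tatdn1 itself was at 5.77 ± 0.34 (SD, n = 6) in Tatdn1+/+ cortex and at 4.99 ± 0.31 in Tatdn1-/- cortex (difference -0.78, limma adjusted p = 0.168, exact permutation p = 0.00433), and at 6.85 ± 0.25 and 5.49 ± 0.39 in ventricle (difference -1.36, limma adjusted p = 0.0156). The probe set can also cover exons outside the deletion. The heart myosin gene Myh6 stood at 10.96 to 11.46 on the ventricle arrays and at 1.65 to 2.60 on the cortex arrays. The cortical glutamate transporter gene Slc17a7 stood at 10.74 to 11.20 in cortex and at 6.67 to 7.24 in ventricle, a smaller contrast. The tissue labels and the defining markers thus matched. The cortex array of the Tatdn1-/- male M78-1 stood apart, with the lowest value of its group in 28.6% of all probe sets and the highest in 33.2%, whereas the other 11 cortex arrays were lowest in at most 20.6% and highest in at most 23.5%. The codes of the Tatdn1+/+ mice begin with M75 or F76 and those of the Tatdn1-/- mice with M77, M78 or F77. The meaning of these codes is not given, so that anything they stand for cannot be told apart from genotype.

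All 9 genes were higher in cortex than in ventricle, a tissue without striatal neurons. In Tatdn1+/+ mice the difference ran from 0.92 for Adcy5 to 6.18 for Pde1b, with a median of 5.33, and 9 of 9 were called higher in cortex, against a background of 26.8% of all probe sets (limma, Benjamini-Hochberg adjusted p between 6.38e-21 and 4.77e-06). In Tatdn1-/- mice the difference ran from 1.18 to 6.57, and again 9 of 9 were called, against 25.2%. For Pde1b the ventricle values of 2.27 to 3.72 lay below every cortex value, from 8.97 to 10.06. Adcy5, which is also an adenylyl cyclase of the heart, had the smallest difference in both genotypes. Its ventricle arrays ran from 6.11 to 6.88 and its cortex arrays from 6.73 to 7.93, so that the tissues overlapped. Adora2a was intermediate, with ventricle values between 3.21 and 3.98 and cortex values between 5.17 and 7.07. The plot of values by array shows these levels.

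**Figure D1:**
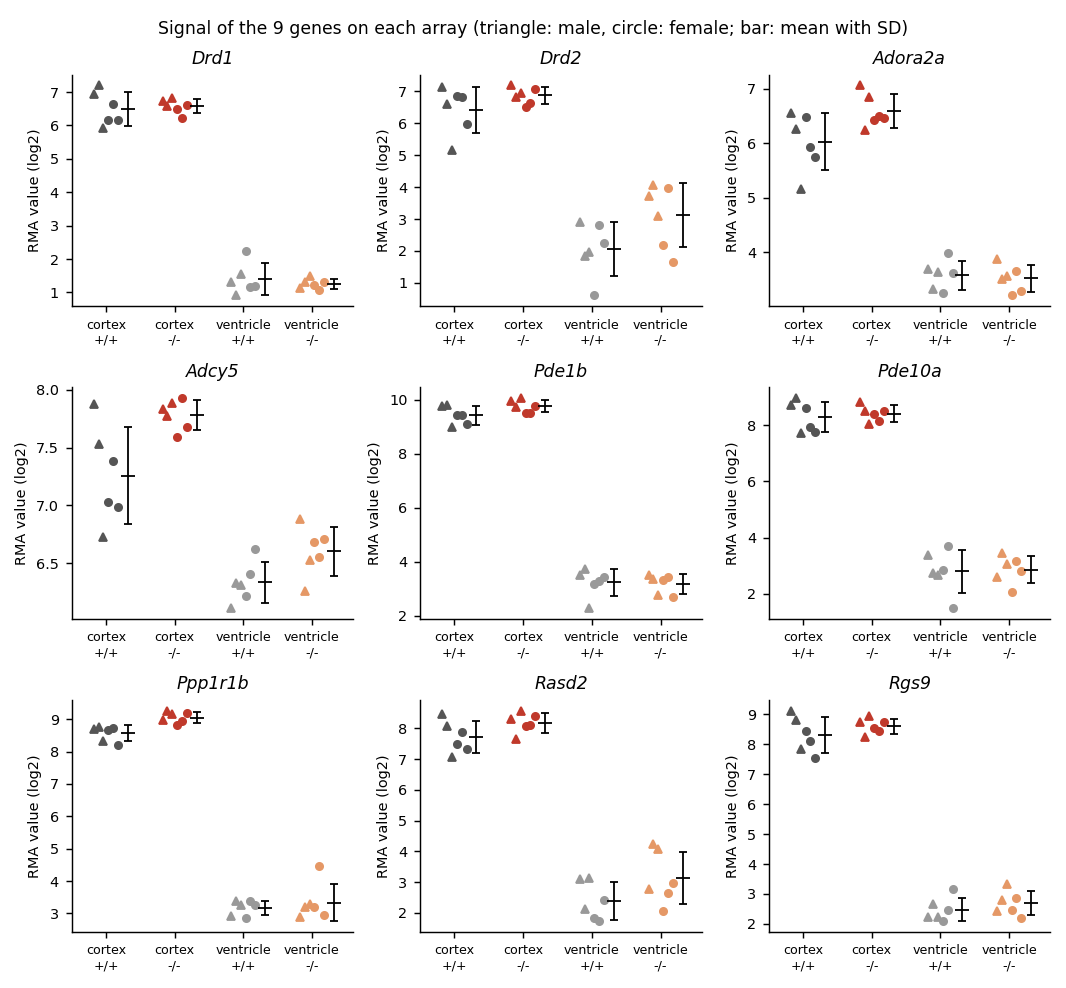
Log2 RMA value (vertical axis) of each of the 9 genes on every array, in cortex and ventricle of Tatdn1+/+ and Tatdn1-/- mice, with the mean and SD (n = 6) beside each group; the vertical scale differs between genes and does not start at 0. For Ppp1r1b the 6 Tatdn1-/- cortex arrays, at 8.81 to 9.26, lie above all 6 Tatdn1+/+ arrays, at 8.19 to 8.77.

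Whether loss of Tatdn1 went with a change of these genes in cortex was asked by comparing the 6 mice of each genotype. The mean of every one of the 9 genes was higher in Tatdn1-/- cortex, by 0.07 for Drd1 up to 0.56 for Adora2a on the log2 scale, with a median of 0.443 where the median over all probe sets was -0.017 and 46.1% of them lay above 0. None of the 9 was called after adjustment over all probe sets (limma, lowest adjusted p = 0.372). Of all probe sets 0.00901%, or 2, were called. The exact Wilcoxon test called none, but with 6 against 6 mice its p cannot fall below 0.00216. It could therefore hardly call any gene after adjustment over 22206 probe sets. At an unadjusted limma p under 0.05, 5 of the 9 were higher (Ppp1r1b, Adcy5, Adora2a, Rasd2 and Pde1b) and 0 lower, against 2.39% of all probe sets higher. That count was 3 when any one of M75-2, F76-1, F76-3, M78-0, M77-1 or F77-3 was left out, 4 without the outlying array M78-1, 2 by the exact Wilcoxon test and 3 with all 24 arrays in 1 fit. Without M75-2 the median was 0.253. Over all probe sets, 531 were higher and 1020 lower at this level, a split that centring each array on its median turned to 874 and 630, and under that centring the 9 genes had a median of 0.49 with 5 higher at an unadjusted p under 0.05. The 9 genes share the same mice and varied together among them, as described further on, so that these counts are not those of 9 independent genes. In whole tissue a higher signal from more cells of a type cannot be told apart from more RNA per cell.

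Among the receptors, Adora2a differed most. Its Tatdn1+/+ cortex values ran from 5.17 through a median of 6.10 to 6.56, and its Tatdn1-/- values from 6.24 through 6.48 to 7.07. The groups overlapped, with 2 Tatdn1-/- mice above all Tatdn1+/+ mice and 3 Tatdn1+/+ mice below all Tatdn1-/- mice. The means of 6.03 ± 0.52 and 6.59 ± 0.31 (SD, n = 6 each) differed by 0.56 (standard error 0.21, a 1.47-fold higher signal, limma adjusted p = 0.604, exact permutation p = 0.0519). Drd2, its partner on indirect pathway neurons, had a lowest value of 5.17, a median of 6.70 and a highest of 7.12 in Tatdn1+/+ cortex, against 6.51, 6.88 and 7.19 in Tatdn1-/- cortex. The low end of the Tatdn1+/+ group was set by M75-2 at 5.17 and F76-3 at 5.97, and the other 4 mice, at 6.59 to 7.12, lay within the range of the mutants. The difference of 0.44 (standard error 0.26) had a 95% interval from -0.11 to 0.99, and it was 0.19 without M75-2. For Drd1, the receptor of the direct pathway, the values ran from 5.93 through 6.40 to 7.21 in Tatdn1+/+ and from 6.21 through 6.60 to 6.82 in Tatdn1-/- cortex. Here the mutants lay inside the range of the Tatdn1+/+ mice, and the difference of 0.07 had an interval from -0.34 to 0.49. The differences between receptors were not themselves tested.

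The cyclase gene Adcy5 ran from 6.73 through a median of 7.21 to 7.88 in Tatdn1+/+ and from 7.59 through 7.80 to 7.93 in Tatdn1-/- cortex. Of the Tatdn1+/+ mice, 5 lay below all mutants and only M75-0, at 7.88, lay among them. The means of 7.26 ± 0.42 and 7.78 ± 0.13 differed by 0.52 (standard error 0.17, 1.44-fold, limma adjusted p = 0.473, exact permutation p = 0.0173). The phosphodiesterases act on the product of this enzyme. Pde1b, whose enzyme is switched on by calcium and calmodulin, ran from 8.97 through 9.42 to 9.79 in Tatdn1+/+ and from 9.50 through 9.74 to 10.06 in Tatdn1-/- cortex, so that the means differed by 0.34 (standard error 0.16, limma adjusted p = 0.708). All 6 mutants were above the Tatdn1+/+ median, and 2 of them were above every Tatdn1+/+ mouse. Pde10a, a phosphodiesterase enriched in medium spiny neurons, ran from 7.73 through 8.28 to 8.97 and from 8.03 through 8.46 to 8.84, so that the mutants lay within the Tatdn1+/+ range, with a difference of 0.12 (95% interval -0.34 to 0.57).

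Ppp1r1b, on which the dopamine and adenosine signals converge, was the single gene of the 9 whose genotypes did not overlap in cortex, as was the case for 0.576% of all probe sets. Its Tatdn1+/+ values ran from 8.19 through a median of 8.69 to 8.77 and its Tatdn1-/- values from 8.81 through 9.05 to 9.26. The means of 8.56 ± 0.25 and 9.05 ± 0.17 differed by 0.48 (standard error 0.13, a 1.40-fold higher signal, limma adjusted p = 0.372). The exact permutation p of 0.00216 is the smallest that the 924 splits of 12 mice into 6 and 6 can give. Rasd2, which restrains dopamine receptor signalling to the cyclase, ran from 7.07 through 7.68 to 8.48 and from 7.64 through 8.21 to 8.57. The groups overlapped widely, as only 1 mutant exceeded every Tatdn1+/+ mouse, and the difference was 0.47 (standard error 0.21, limma adjusted p = 0.7). Rgs9 ran from 7.53 through 8.27 to 9.12 in Tatdn1+/+ and from 8.23 through 8.63 to 8.94 in Tatdn1-/- cortex, with the mutants inside the range of the Tatdn1+/+ mice and a difference of 0.30 (95% interval -0.18 to 0.78), which was 0.15 without F76-3 and 0.47 without M75-0. With 1 mouse left out in turn, the differences of Adora2a (0.39 to 0.66), Adcy5 (0.42 to 0.65), Pde1b (0.25 to 0.42), Ppp1r1b (0.41 to 0.53) and Rasd2 (0.34 to 0.62) moved by less than 1.5 times, whereas Drd1 ran from -0.04 to 0.21 and Pde10a from 0.01 to 0.26.

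**Figure D2:**
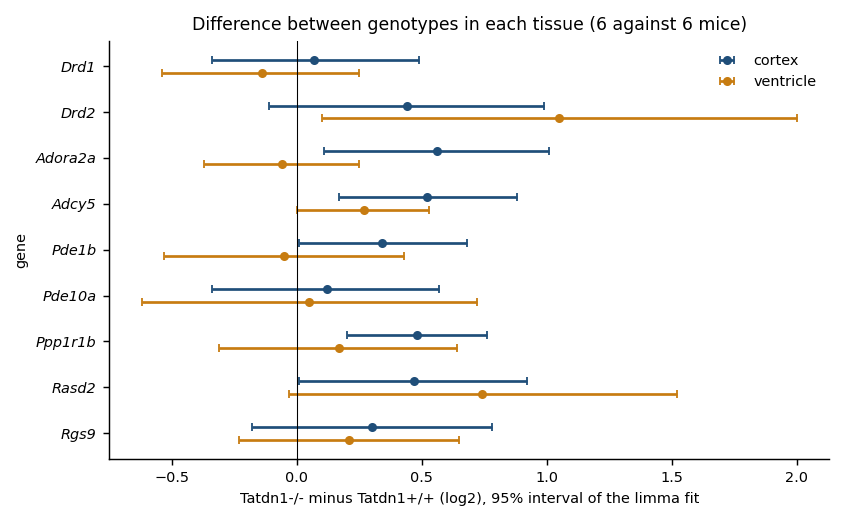
Difference between genotypes (horizontal axis, log2, Tatdn1-/- minus Tatdn1+/+) of each gene in cortex and in ventricle, as the limma estimate (point) with its 95% interval (bar), n = 6 mice a genotype. In cortex all 9 points lie above 0, from 0.07 to 0.56, and in ventricle they run from -0.14 to 1.05, with the widest interval for Drd2.

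The same mice were low or high for nearly all of the 9 genes. The Tatdn1+/+ mice M75-2 and F76-3 had the 2 lowest cortex values of their group for 9 of 9 genes, M75-2 being the lowest for 7 and F76-3 for 2, whereas over all probe sets these arrays were among the 2 lowest for 32.9% and 35.9%. The highest Tatdn1+/+ value belonged to M75-0 for 5 genes and to M75-1 for 4. When the differences of each gene from its genotype mean were scaled to the SD of that gene and averaged over the 9 genes, the Tatdn1+/+ mice stood at 1.35 (M75-0), 1.03 (M75-1), -1.55 (M75-2), 0.15 (F76-1), 0.13 (F76-2) and -1.11 (F76-3). The Tatdn1-/- mice lay closer together, at 0.46 (M78-0), -0.21 (M78-1), 0.45 (M77-1), -0.48 (F77-1), -0.40 (F77-2) and 0.18 (F77-3).

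In all 9 genes the SD over the 6 mice was larger in Tatdn1+/+ than in Tatdn1-/- cortex, as was the case for 52.6% of all probe sets. The ratio of the SDs ran from 1.42 for Ppp1r1b to 3.24 for Adcy5, with a median of 1.89 where that of all probe sets was 1.04. For Adcy5 these SDs were 0.42 and 0.13, for Drd2 0.72 and 0.26, and for Drd1 0.51 and 0.21. The SD remained larger in Tatdn1+/+ cortex for 9 of 9 genes with each of the 12 mice left out in turn, and the median ratio then ran from 1.65 to 2.28. The difference in spread was not tested, and the 9 genes, which share the same mice, are not independent of one another.

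**Figure D3:**
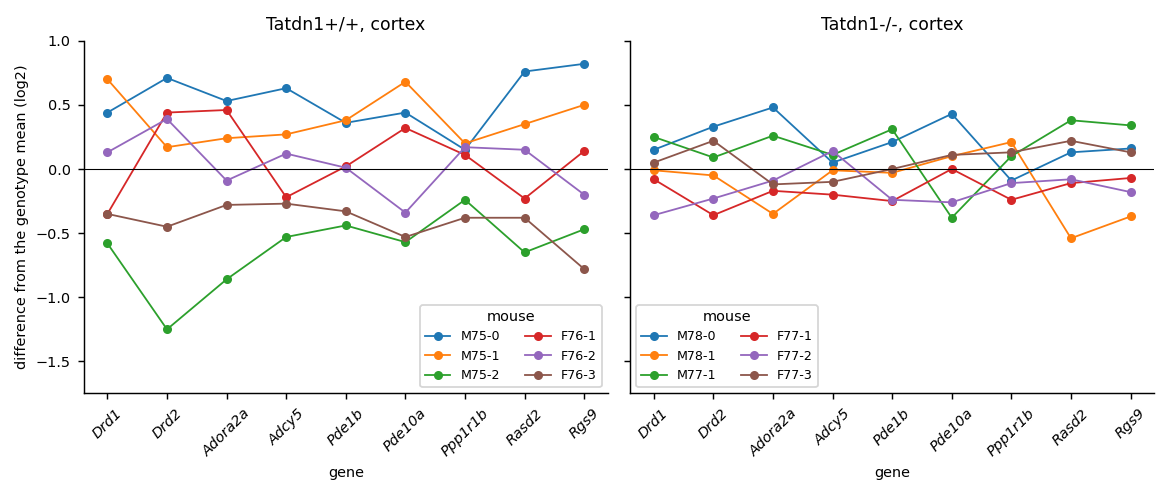
Difference of each mouse from the mean of its genotype in cortex (vertical axis, log2) for each of the 9 genes, 1 line per mouse, for Tatdn1+/+ (left) and Tatdn1-/- mice (right). The lines of M75-2 and F76-3 lie at the bottom for all 9 genes, and the Tatdn1-/- lines cross within a narrower band.

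Pairwise correlations gave the same picture in numbers. In Tatdn1+/+ cortex 36 of 36 pairs of genes had a positive Pearson's r over the 6 mice, from 0.62 to 1.00 with a median of 0.81, and Spearman's rho ran from 0.43 to 1.00 with a median of 0.83. Over the 72 pairs of both genotypes 0 passed after Benjamini-Hochberg adjustment of the exact permutation p for r (lowest adjusted p = 0.1) or for rho (0.1), and 17 of the 36 Tatdn1+/+ pairs had an unadjusted exact p for r under 0.05. With 6 mice the smallest exact p that r can reach is 0.00139. The tightest pair was Adcy5 with Rasd2, at r = 1.00 and rho = 1.00 (exact permutation p = 0.00139 and 0.00278), and leaving out the 2 mice farthest from the median of Adcy5 left r at 0.99. Drd2 and Adora2a, both of indirect pathway neurons, had r = 0.93 and rho = 0.94 (exact permutation p = 0.00694 and 0.01667), and r was 0.51 without the 2 farthest mice, so that its size rested on M75-2 and F76-3. Without the 2 farthest mice 34 of the 36 pairs stayed positive, with a median r of 0.65. In Tatdn1-/- cortex 28 of 36 pairs were positive, from -0.39 to 0.96 with a median of 0.45 (rho from -0.43 to 0.94, median 0.49), and 2 had an unadjusted exact p for r under 0.05. The strongest of them, Rasd2 with Rgs9, had r = 0.96 and rho = 0.89 (exact permutation p = 0.00556 and 0.03333), and r was 0.89 without the 2 farthest mice. The difference between the genotypes in these correlations was not tested.

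**Figure D4:**
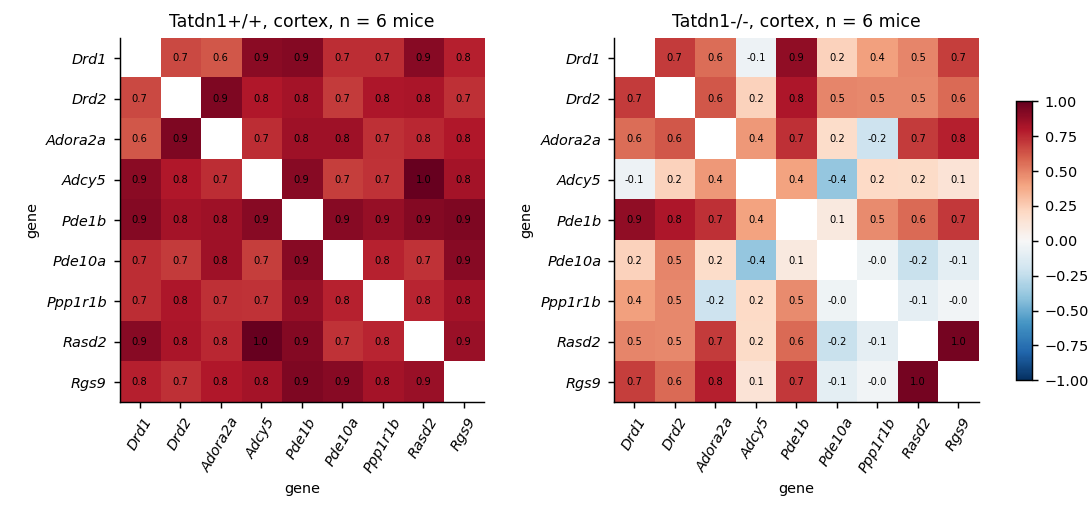
Pearson's r of each pair of the 9 genes over the 6 cortex arrays of Tatdn1+/+ mice (left) and of Tatdn1-/- mice (right), on a colour scale from -1 to 1 with the value in each cell. All 36 pairs are positive on the left, and 28 of 36 on the right.

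Which other genes followed these 9 in cortex was described by Pearson's r over the 12 cortex arrays. It was taken between each gene, as the difference from its genotype mean, and the mean scaled difference of the 9 genes. The Tatdn1+/+ mice, whose mean scaled differences lay further apart, weigh more in this r than the Tatdn1-/- mice. Of 10205 single-symbol genes with a cortex mean above the median, the 10 most alike outside the 9 were Gng7 (r = 0.95), Prkch (0.94), Slc5a7 (0.93), Six3 (0.93), Kcnab1 (0.92), Cacng4 (0.91), Car5b (0.90), Peg10 (0.89), Dlk1 (0.89) and Isl1 (0.89), and the median r over all genes ranked was 0.06. Gng7 encodes the G protein gamma subunit that links striatal receptors to the cyclase, Six3 and Isl1 transcription factors of striatal neurons, and Slc5a7 the choline transporter of cholinergic neurons, which in the striatum are interneurons. Prkch encodes a protein kinase C, Kcnab1 a potassium channel subunit and Cacng4 an auxiliary subunit of glutamate receptors, while Peg10 and Dlk1 are imprinted genes. Slc5a7 went from 3.09 in M75-2 and 3.31 in F76-3 to 5.22 in M75-1 among the Tatdn1+/+ mice. Six3 stood at 4.30 in M75-2, 4.72 in F76-3 and 6.33 in M75-0, and in the mutants it kept to 5.32 to 5.73. Both were picked for their likeness to the 9 genes over these same arrays, so that having the same low mice follows from that choice. Of the 10, 7 had higher means in the mutants, with differences from -0.33 (Dlk1) to 0.34 (Six3), and 0 were called by limma. At the opposite end stood Neurod6, a transcription factor of cortical pyramidal neurons (r = -0.87), which was highest in M75-2 at 8.08 and lowest in M78-0 at 7.26. As it was picked for its r over these same arrays, its high value in M75-2 follows from that choice too.

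Other genes of the striatum were taken from a list of markers. Of 33 measured genes on it, 32 had an r above 0, against 57.4% of all genes ranked, with a median of 0.68. The enkephalin gene Penk, the transmitter peptide of the indirect pathway, had r = 0.88, with 9.79 in M75-2 and 10.50 in M75-0. The substance P gene Tac1 and the dynorphin gene Pdyn, peptides of the direct pathway, had 0.61 and 0.66. Between genotypes 28 of the 33 had higher means in the mutants, against 46.1% of all probe sets, by a median of 0.174. At an unadjusted p under 0.05 in limma 3 were higher (Spock3 by 0.47, Slc35d3 by 0.56 and Foxp1 by 0.28), against 2.39% of all probe sets. None was lower at this level, and 0 were called. Their mean level ran from 5.77 to 6.57 over the Tatdn1+/+ and from 6.14 to 6.53 over the Tatdn1-/- cortex arrays. Penk differed by 0.14, Tac1 by 0.09 and Pdyn by 0.23, each close to or below the SDs of its groups. Of 7 genes of cholinergic neurons 6 had an r above 0, with a median of 0.81. Lhx8, a transcription factor of these neurons, was higher in Tatdn1-/- cortex by 0.68 at an unadjusted limma p of 0.0491. In Tatdn1+/+ mice its mean was 3.65 in cortex and 3.31 in ventricle, not called apart (limma adjusted p = 0.316). Chat and Slc18a3 of this list were dim too, with Tatdn1+/+ means of 2.89 and 2.83 in cortex against 1.62 and 1.44 in ventricle.

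The partners of the 9 genes in dopamine and cyclic AMP signalling are mostly used by neurons outside the striatum as well. Of 31 such genes 22 had an r above 0, against 57.4% of all genes ranked, with a median of 0.23 and a range from -0.66 to 0.95. In cortex 19 had a higher mean in Tatdn1-/- mice, against 46.1% of all probe sets, with a median of 0.047. At an unadjusted limma p under 0.05, 2 were higher and 0 lower, where 2.39% of all probe sets were higher. The 2 were Arpp21, a phosphoprotein regulated by cyclic AMP, by 0.33 and Csnk2a1, a casein kinase subunit, by 0.24. Of 25 measured paralogs of the 9 genes, 17 had an r above 0 (median 0.12) and 16 a higher mean (median difference 0.035), with the same background shares of 57.4% and 46.1%. Among these the dopamine receptor gene Drd5 was higher by 0.43 and the G protein regulator Rgs7 lower, with a difference of -0.49, both at an unadjusted limma p under 0.05. In neither list was any gene called.

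Markers of other cell types were set beside the 9 genes in the same way. All 14 measured oligodendrocyte genes had an r above 0 over the 12 arrays, against 57.4% of all genes ranked, with a median of 0.59. By genotype, Mbp had r = 0.98 over the Tatdn1+/+ arrays but -0.75 over the Tatdn1-/- arrays. For Cnp these values were 0.63 and 0.13, for Mag 0.73 and 0.46 and for Opalin 0.80 and 0.73. The mean level of the 14 genes was 6.81 in M75-2 and 6.93 in F76-3, the 2 lowest Tatdn1+/+ mice, and 7.67 in M75-0, the highest. Between genotypes 11 of the 14 had higher means in the mutants (median difference 0.265), against 46.1% of all probe sets. The mean level over the list was 6.81 to 7.67 in Tatdn1+/+ and 7.15 to 7.48 in Tatdn1-/- arrays. The myelin genes Mbp, by 0.34, and Cnp, by 0.40, were higher at an unadjusted limma p under 0.05, against 2.39% of all probe sets. Of the 14 genes 0 were called. Of 19 markers of cortical projection neurons only 5 had an r above 0, with a median of -0.28, and Slc17a7 (r = -0.74) was highest among Tatdn1+/+ mice in M75-2 at 11.18 and F76-3 at 11.14 and lowest in M75-0 at 10.74. The mean level of these 19 genes was 7.71 to 8.02 in Tatdn1+/+ and 7.77 to 7.98 in Tatdn1-/- arrays, with a median genotype difference of 0.001. The medians of r were 0.16 for 13 interneuron genes, 0.16 for 11 thalamic, 0.01 for 11 hippocampal, -0.02 for 9 choroid plexus, -0.20 for 10 astrocyte, 0.20 for 9 microglial, -0.03 for 8 dopamine neuron and -0.10 for 19 pan-neuronal genes. In 21 activity-induced genes the median r was -0.22. All 21 had a lower mean in Tatdn1-/- cortex, with a median difference of -0.515, and 10 were lower at an unadjusted limma p under 0.05, against 4.59% of all probe sets, while 0 were called. The part of tissue composition in the genotype differences of the 9 genes was not tested.

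**Figure D5:**
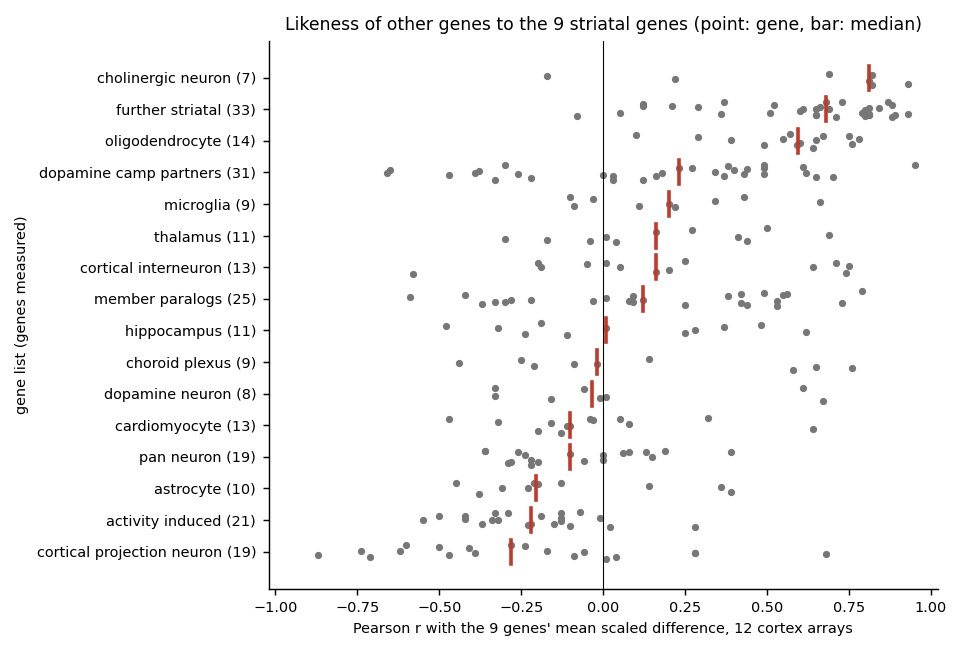
Pearson's r (horizontal axis) of each gene of 16 lists with the mean scaled difference of the 9 genes over 12 cortex arrays, 1 point per gene, with the median of each list as a bar; vertical scatter within a list has no meaning. The medians of cholinergic (0.81), further striatal (0.68) and oligodendrocyte genes (0.59) lie to the right and that of cortical projection neuron genes (-0.28) to the left.

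In ventricle all of the genes but Adcy5 lay well below their cortex values. There 6 of 9 had a higher mean in Tatdn1-/- mice, as did 54.1% of all probe sets. The median difference of the 9 genes was 0.168, against 0.019 over all probe sets. None of the 9 was called (limma, lowest adjusted p = 0.539, with 0.0135% of all probe sets called). The exact Wilcoxon test called none, but it could hardly call any gene, as in cortex. At an unadjusted limma p under 0.05, 2 of 9, Drd2 and Adcy5, were higher, against 5.08% of all probe sets. That count was 0 without any one of M75-1, F76-1 or M78-0, and 1 without any one of M75-2, F76-2, M78-1, M77-1, F77-2 or F77-3, and by quantile normalisation or centring. The median was 0.10 without F76-1, 0.08 without M77-1 and -0.013 without F77-2. Over all probe sets the split of 1129 higher and 749 lower at this level became 846 and 954 after centring. Drd2 ran from 0.61 through a median of 2.10 to 2.90 in Tatdn1+/+ and from 1.67 through 3.41 to 4.05 in Tatdn1-/- ventricle. Of the mutants 4 lay above all Tatdn1+/+ mice, and F77-1 and F77-3, at 2.18 and 1.67, lay among them. The difference was 1.05 (standard error 0.44, limma adjusted p = 0.539, exact permutation p = 0.0801). The highest Drd2 value, 4.05, was that of M78-1, whose ventricle array also had the highest Rasd2 value, 4.24, and the highest mean level of 19 pan-neuronal genes, 4.11, against 2.88 to 3.45 on the other 11 ventricle arrays. On that array the synaptic genes Snap25 and Syt1 stood at 7.09 and 6.42. In F77-2, with Drd2 at 3.98, they stood at 4.72 and 4.62. Other mutants went the other way. F77-3, with the lowest mutant Drd2 value, had Snap25 at 5.67 and Syt1 at 5.19, and M78-0, with Drd2 at 3.72, had them at 3.09 and 2.78. Without M78-1 the Drd2 difference was 0.87 (limma adjusted p = 0.713). Among the pan-neuronal genes 5 of 19 were higher in Tatdn1-/- ventricle at an unadjusted limma p under 0.05, and the part of neuronal RNA in the Drd2 difference was not tested. Adcy5 had a mean of 6.33 ± 0.18 (SD, n = 6) in Tatdn1+/+ and of 6.60 ± 0.21 in Tatdn1-/- ventricle, which differ by 0.27 (standard error 0.12, limma adjusted p = 0.585, exact permutation p = 0.0433).

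Whether the genotype difference itself differed between tissues or sexes was tested directly. Over both tissues 0 of 9 genes were called for the interaction of tissue and genotype (limma, lowest adjusted p = 0.461; 0.0135% of all probe sets were called). The lowest unadjusted p, 0.0297, was that of Adora2a, whose genotype difference was 0.56 in cortex and -0.06 in ventricle, 0.62 apart (standard error 0.27). Drd2, with 0.44 in cortex and 1.05 in ventricle, had an interval of the difference from -1.72 to 0.50. For sex in cortex, 0 of 9 genes were called and 0 had an unadjusted p under 0.05 for a genotype difference that varied with sex (limma, 0.0% of all probe sets called), with estimates from -0.48 for Rgs9 to 0.50 for Drd2 and a median of -0.11. These estimates rested on single mice. Without M75-2 all 9 were negative, from -0.86 to -0.06 with a median of -0.47. Of them 1 was negative at an unadjusted limma p under 0.05, where 402 of 22206 probe sets were. Without M75-0 the median was 0.10 with 6 of 9 above 0. Males and females themselves differed by 0.00 for Drd2 to 0.32 for Drd1 and Rgs9, higher in males for the other 8 genes, and 0 of 9 were called or had an unadjusted p under 0.05 (limma, 0.018% of all probe sets called). Without M75-2 the count higher in males at an unadjusted limma p under 0.05 was 4 of 9, against 2.74% of all probe sets. The median difference was then 0.31 in place of 0.17, and none was called. Within 1 sex the median genotype difference of the 9 genes in cortex was 0.40 in males, where 8 of 9 were above 0, and 0.40 in females, where 9 of 9 were.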

How the data were processed

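Cortex and ventricle RNA of 12 mice was hybridised to 24 Clariom S HT arrays. The authors deposited log2 values normalised with RMA (version not given in the sources used here), and the 29129 entries of that table were taken as they stand. The 22206 gene-level probe sets were kept, of which 19648 had 1 gene symbol, 76 of them (Adora2a among these) named through the annotation column of the study's supplementary list. Depth has no meaning for arrays, and the number of mice limits the precision. Genotypes, tissues and sexes were compared with limma 3.58.1 in R 4.3.3 (lmFit, eBayes, Benjamini-Hochberg over all probe sets, called at 0.05), and single genes also with two-sided exact permutation tests in Python 3.11.15 (scipy 1.17.1). The fits were tested on simulated data. The genes named are the 9, Tatdn1, the 10 most like the 9 in cortex, up to 4 of each of 16 lists by smallest unadjusted p, and the genes a list is known by. Syt1 was chosen after its values were seen. Members and lists were chosen with earlier results of these data known. Mouse codes in the labels pair the tissues of each animal. Over all probe sets the deviations of the 2 tissues of a mouse correlated at -0.08 to 0.046. Alternatives were other normalisations, filters, weights, tests, sexes alone, blocks by mouse and each mouse left out.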

Additional observations from a re-analysis of the deposited data

Results flagged for a closer look

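Of 36 sets of 6 arrays (9 genes in 4 groups), 1 held an array far from the others, where chance alone flags about 1 in 20. Ppp1r1b in Tatdn1-/- ventricle stood at 4.46 in the female F77-2, against 2.90 to 3.28 in the other 5 mice, a gap of 0.75 of the range of the group, above Dixon's 95% critical value. The cortex array of the same mouse, at 8.93, lay within its group.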

How the results depend on the processing

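The counts of the 9 genes called after adjustment (0 in cortex, 0 in ventricle, 9 for tissue in either genotype, 0 for both interactions and 0 for sex) were the same under every alternative run for them. Among these alternatives the exact Wilcoxon test could hardly call any gene with so few mice. With the mouse as a random or as a fixed replicate block, pairing the tissues of a mouse, 9 genes were again called for tissue in each genotype and 0 for the interaction (consensus correlation within mice -0.0137). In cortex the count of 5 genes higher at an unadjusted p under 0.05 became 2 by the exact Wilcoxon test, 3 with all 24 arrays in 1 fit and 1 in males alone, and ran from 3 to 7 with 1 mouse left out. The 2 probe sets called of all in cortex became 4 by quantile normalisation or centring, 11 with array weights, 6 with a variance trend and robust fit, 8 with sex as a term, 34 with all 24 arrays, 0 by the Wilcoxon test, in males alone or in females alone, and 1 to 16 with 1 mouse left out. In ventricle the count of 2 genes became 1 by quantile normalisation, centring or in males alone and 0 by the Wilcoxon test or in females alone, and ran from 0 to 2 with 1 mouse left out, when the median ran from -0.013 to 0.243. The 3 probe sets called of all in ventricle became 16 with a variance trend and robust fit, 24 with all 24 arrays, 0 by the Wilcoxon test or in either sex alone, and 0 to 5 with 1 mouse left out.

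Uncalled differences also changed sign. In cortex this was so for Pde10a in males alone (-0.01) and Drd1, from -0.04 to 0.21 with 1 mouse left out. In ventricle Pde1b was 0.02 with array weights, and in males alone Drd1 was 0.04, Adora2a 0.10, Pde1b 0.04 and Ppp1r1b -0.05, while Rgs9 was -0.06 in females alone. With 1 mouse left out Drd1 ran from -0.24 to 0.03, Adora2a ran from -0.13 to 0.02, Pde1b ran from -0.24 to 0.05, Pde10a ran from -0.22 to 0.22 and Ppp1r1b ran from -0.06 to 0.25. For the interaction of tissue and genotype, Drd1 then ran from -0.02 to 0.45, Pde10a from -0.17 to 0.23, Rasd2 from -0.56 to 0.05 and Rgs9 from -0.20 to 0.30. For that of sex and genotype, Drd1 ran from -0.50 to 0.14, Drd2 from -0.06 to 0.91, Adora2a from -0.10 to 0.60, Adcy5 from -0.47 to 0.10, Pde1b from -0.15 to 0.26 and Ppp1r1b from -0.06 to 0.25. For sex, Drd2 ran from -0.16 to 0.28, Adora2a from -0.01 to 0.30 and Rasd2 from -0.01 to 0.30. The causes were not tested. Pairs and spread, whose alternatives were chosen after seeing the data, kept 36 of 36 positive pairs in Tatdn1+/+ and 26 to 32 in Tatdn1-/- cortex with 1 mouse left out. Drd1 in ventricle was among the 30% dimmest probe sets and had no value under that filter. No gene had several probe sets, so that averaging them could not be tried.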
